A study of Mus musculus with 4 samples.

Results

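NK-type lectin receptors are C-type lectin-like membrane proteins by which natural killer (NK) cells, and some activated CD8+ T cells, sense self molecules and stress molecules on neighbouring cells. Inhibitory receptors of the family carry a short tyrosine motif in their cytoplasmic tail, the immunoreceptor tyrosine-based inhibitory motif (ITIM), that recruits the phosphatases SHP-1, SHP-2 and SHIP-1. Activating receptors have no such motif and signal through adaptor proteins such as DAP12 (*Tyrobp*), DAP10 (*Hcst*) and FcRγ (*Fcer1g*). The set described here holds 9 genes chosen by name: *Klrd1* (CD94), *Klrc1* (NKG2A), *Klrc2* (NKG2C), *Klrg1* (KLRG1), *Klra3* (Ly49C), *Klra7* (Ly49G), *Klrk1* (NKG2D), *Klrb1c* (NK1.1) and *Klre1* (KLRE1), among the 15981 genes listed in at least 1 library.

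RNA-Seq compared tumor-infiltrating Tc1 with Tc9 cells, with 2 libraries per group. Both were CD8+ T cells of Thy1.1+ Pmel-1 mice, which carry a transgenic receptor for the melanoma antigen gp100 on the C57BL/6 background. Tc1 cells were polarized in vitro with IL-2, and Tc9 cells with IL-4, TGF-β and an antibody to IFN-γ, and both cultures lasted 5 days and ended in medium with IL-2. The cells were injected into Thy1.2+ mice with 10-day subcutaneous B16 melanomas and sorted from the tumors 14 days later. The mice of both groups were given cyclophosphamide the day before the transfer, and peptide-pulsed dendritic cells and IL-2 after it. The RNA of 6 mice was pooled into 2 samples per group, and it is not stated whether the mice were 6 per group, so the p-values below measure the spread between pools.

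Library depth was 30822953 to 31927162 counts, summed for Tc9 replicate 2 and estimated from the relation of count to FPKM for the others. The tables used here list genes in the order of their identifiers and stop at different points. The table of Tc1 replicate 1 reached none of the 9 receptors. Those of Tc1 replicate 2, Tc9 replicate 1 and Tc9 replicate 2 reached 6 (*Klrd1*, *Klrc1*, *Klrc2*, *Klra3*, *Klra7* and *Klrb1c*). The table of Tc1 replicate 2 and that of Tc9 replicate 2 also reached *Klre1*, and the table of Tc9 replicate 2 alone reached *Klrk1* and *Klrg1*. The receptors were therefore measured in 1 Tc1 library. Tests over the 3 libraries took their spread from the 2 Tc9 libraries and assumed that the lone Tc1 library varied like them. Over 1284 genes compared in all 4 libraries, the Tc9 replicates differed more than the Tc1 replicates did (chi-square per gene 42.6 and 4.47). A gene not listed within the range of a table was taken as 0 counts. In bulk RNA, fewer cells with a receptor and less receptor RNA per cell cannot be told apart.

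The ITIM of the inhibitory receptors is encoded at the start of the coding sequence. That stretch is shown, so that inhibitory and activating receptors can be compared, for the 5 receptors that had enough counts to be tested, from GENCODE transcripts on GRCm38, 5′ to 3′ on the coding strand, first 90 coding bases, with the codons of the inhibitory motif in capitals.
Klrc1: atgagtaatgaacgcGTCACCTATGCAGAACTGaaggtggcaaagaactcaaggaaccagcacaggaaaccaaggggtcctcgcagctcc
Klra3: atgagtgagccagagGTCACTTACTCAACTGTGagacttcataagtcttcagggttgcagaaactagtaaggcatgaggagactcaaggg
Klra7: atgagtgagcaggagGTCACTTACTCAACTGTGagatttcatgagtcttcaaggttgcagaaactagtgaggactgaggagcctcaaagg
Klrc2: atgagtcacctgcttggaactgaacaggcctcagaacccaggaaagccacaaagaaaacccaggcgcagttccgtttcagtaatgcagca
Klrd1: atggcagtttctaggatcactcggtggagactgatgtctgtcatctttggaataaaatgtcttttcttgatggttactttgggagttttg

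The motif searched began with a codon for isoleucine, valine, leucine or serine, then any codon and a tyrosine codon. It ended with any 2 codons and a codon for valine or leucine. It lay at codons 6 to 11 of *Klrc1*, *Klra3* and *Klra7*, and at codons 5 to 10 of *Klrg1*. No match was found in the first 50 codons of *Klrd1*, *Klrc2*, *Klrk1*, *Klrb1c* or *Klre1*. Over all mouse genes, 1015 of 21591 (4.70%) held a match in that stretch. *Klra3* and *Klra7* had identical motif codons.

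All 9 genes lie on chromosome 6 (coordinates on GRCm38.p6 from RefSeq, the assembly that corresponds to mm10, the build in the submitters' processing notes). In order along the chromosome these are *Klrg1* (chr6:122270596-122282833), *Klrb1c* (chr6:128778485-128788641), *Klre1* (chr6:129559365-129585828), *Klrd1* (chr6:129588092-129598775), *Klrk1* (chr6:129610323-129623903), *Klrc2* (chr6:129649602-129660737), *Klrc1* (chr6:129666015-129682852), *Klra7* (chr6:130218605-130233322) and *Klra3* (chr6:130323289-130337626). *Klrd1* and *Klre1* are read from the plus strand and the others from the minus strand. The 8 genes other than *Klrg1* fall within 1559 kb, the natural killer gene complex.

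RNA of NKG2A, NKG2C, Ly49C and Ly49G was lower in Tc9 than in Tc1 cells. Of the 5 receptors tested, *Klrc1*, *Klrc2*, *Klra3* and *Klra7* were lower in Tc9 cells (edgeR's quasi-likelihood test, Benjamini-Hochberg adjusted p under 0.05) and *Klrd1* did not pass. These 4 genes stand beside 7.93% of the 2622 genes tested that were lower and 12.5% that were higher. None of the 5 was higher. In all 5 both Tc9 libraries lay below the Tc1 library, as they did in 40.0% of all genes tested. The median log2 fold change of the 5 was -1.04, beside 0.02 over all genes tested. The Tc9 replicates differed from each other by a median of 0.23 on the log2 scale over these genes, with a 95th percentile of 0.73. All 5 had at least 29 counts in every library, so none passed the filter on low counts through the Tc1 library alone. In this fit no gene had its own estimate of the spread, which was shared across genes of like level. Some other settings called fewer receptors. When the scaling factors came from the genes common to all 4 libraries, 2 of them (*Klrc1* and *Klra3*) passed. With DESeq2 1 (*Klrc1*) passed, and 0 passed without the filter on low counts, where no gene of the table passed.

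**Figure D1:**
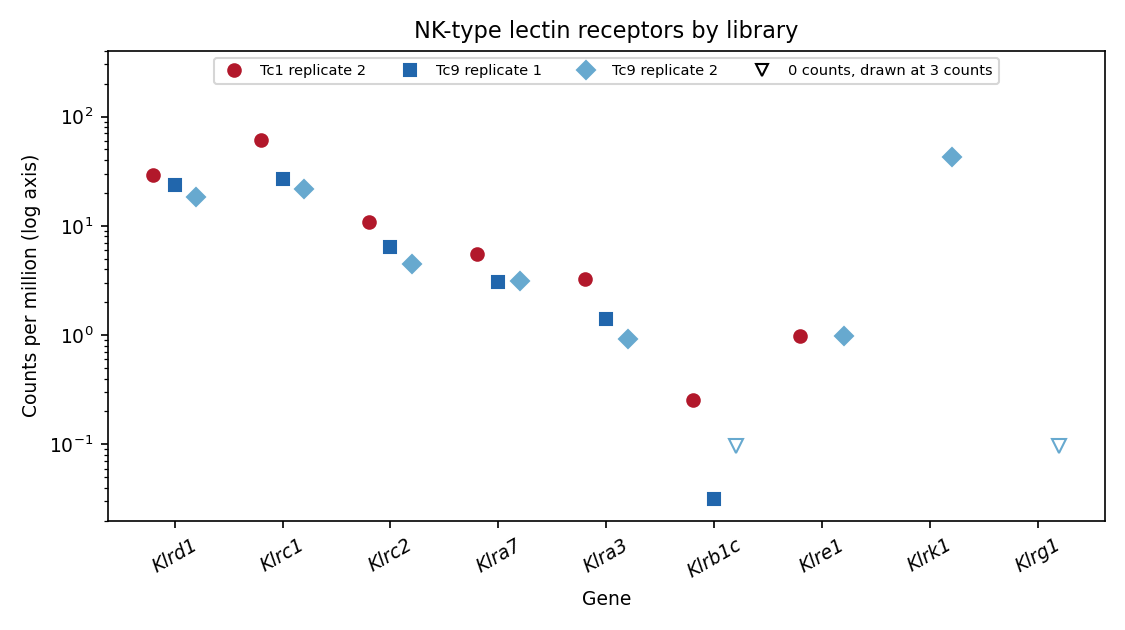
CPM (counts scaled by library depth) of the 9 receptors on a log axis in each library whose table reaches the gene. Open triangles mark genes at 0 counts, drawn at the level of 3 counts. *Klrd1*, *Klrc1*, *Klrc2*, *Klra7* and *Klra3* were higher in Tc1 replicate 2 than in either Tc9 library, as were 40.0% of the 2622 genes tested. *Klre1* was at 31 counts in both libraries that reach it.

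*Klrc1* encodes NKG2A, the inhibitory chain that pairs with CD94 and binds the nonclassical MHC molecule Qa-1. It had 1921.63 counts in Tc1 replicate 2, 840.11 in Tc9 replicate 1 and 683.88 in Tc9 replicate 2, or 25.4, 10.5 and 8.20 FPKM. The Tc1 library stood far above both Tc9 libraries. On the log2 scale *Klrc1* fell by 1.36 (SE 0.24, adjusted p = 2.33e-07 by edgeR), a lower value than that of all but 3.01% of the genes tested. Among the receptors it alone passed under 6 of the 7 alternative tests, and the adjusted p without a filter was 0.155.

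*Klrd1* encodes CD94, the chain that both NKG2A and NKG2C need to reach the cell surface. Its counts were 923 in Tc1 replicate 2, 734 in Tc9 replicate 1 and 581 in Tc9 replicate 2, with FPKM values of 40.2, 32.6 and 25.9. Both Tc9 libraries were below the Tc1 library, but the gap between the Tc9 libraries was wide beside the gap to Tc1. The log2 fold change was -0.52 (SE 0.24), with an adjusted p = 0.115 by edgeR, and *Klrd1* passed under none of the 7 alternative tests. Per length, the ratio of *Klrc1* to *Klrd1* (a ratio of FPKM) was 0.632 in the Tc1 library, 0.322 in Tc9 replicate 1 and 0.316 in Tc9 replicate 2. The Tc9 libraries thus lay close together in this ratio and the Tc1 library apart, a difference that was not tested.

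*Klrc2* encodes NKG2C, the activating partner of CD94. Counts of 340.65 in Tc1 replicate 2, 198.86 in Tc9 replicate 1 and 138.84 in Tc9 replicate 2 gave a log2 fold change of -1.04 (SE 0.26, adjusted p = 0.000762 by edgeR). Both Tc9 libraries were below the Tc1 library. Its deposited length was 12835 bases in Tc1 replicate 2, 9550.69 in Tc9 replicate 1 and 10366.2 in Tc9 replicate 2, against a reference transcript of 717 bases, so its FPKM values of 0.84, 0.68 and 0.44 are not comparable with those of the other receptors. On those values, as log2(FPKM + 1) with limma, the log2 fold change was -0.24 and did not pass.

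The transcripts of *Klrc1* and *Klrc2* share sequence, so the split of reads between them is uncertain. Windows of 50 bases were compared among the lectin receptor genes of the family, and no gene outside it was searched. Of the windows of *Klrc1*, 40.3% also occur in another such gene's transcripts (38.1% in those of *Klrc2*). Of those of *Klrc2*, 41.5% do (26.6% in *Klrc3*). Summed as 1 feature, *Klrc1* and *Klrc2* had 2262.28, 1038.97 and 822.72 counts in the same order of libraries. The sum fell by 1.31 on the log2 scale (SE 0.24, adjusted p = 1.07e-06 by edgeR). Most of the summed counts are those of *Klrc1*, so the sum says little about *Klrc2* alone.

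*Klra3* and *Klra7* encode Ly49C and Ly49G, inhibitory receptors for classical MHC class I molecules. *Klra3* had 103 counts in Tc1 replicate 2, 44 in Tc9 replicate 1 and 29 in Tc9 replicate 2 (3.27, 1.48 and 0.94 FPKM). Its log2 fold change was -1.52 (SE 0.37, adjusted p = 0.000393 by edgeR), the most negative of the 5. Both Tc9 libraries were under the Tc1 library, and counts this low make the fold imprecise. The rank depended on the scale. With limma *Klrc1* was more negative than *Klra3* on log2(FPKM + 1) (-1.36 against -0.96) and on log2(FPKM + 0.1) (-1.44 against -1.39). Of the 50-base windows of *Klra3*, 21.5% occur in other lectin receptor genes (14.0% in *Klra9*).

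*Klra7* had 172.58 counts in Tc1 replicate 2, 97 in Tc9 replicate 1 and 98.56 in Tc9 replicate 2 (5.82, 3.36 and 3.42 FPKM). The Tc9 libraries lay almost on top of each other, below the Tc1 library. The log2 fold change was -0.85 (SE 0.30, adjusted p = 0.0247 by edgeR), and it passed under 2 of the 7 alternative tests. None of its 50-base windows occurs in the transcripts of another lectin receptor gene, the only genes searched. The counts of all 12 *Klra* genes in the range of the 3 tables, summed, were 422.58 in Tc1 replicate 2, 235 in Tc9 replicate 1 and 188.56 in Tc9 replicate 2. That sum fell by 1.02 on the log2 scale (SE 0.25, adjusted p = 0.000628 by edgeR).

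**Figure D2:**
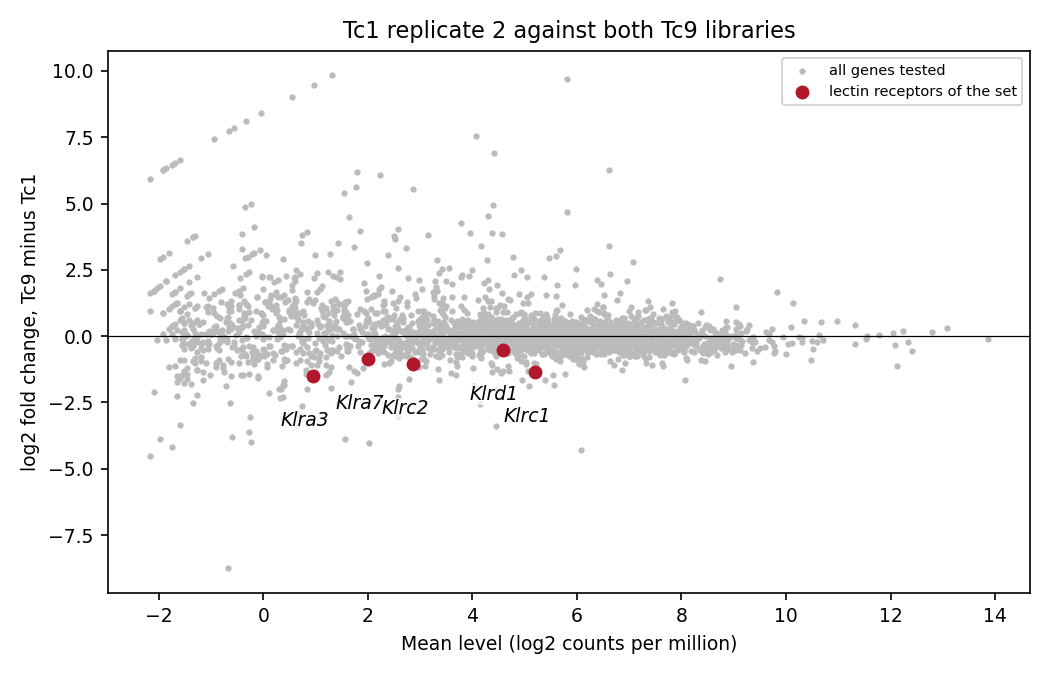
Log2 fold change (Tc9 minus Tc1) against mean level in log2 CPM for the 2622 genes tested in Tc1 replicate 2 and both Tc9 libraries (grey), with the 5 receptors tested in red. All 5 lie below 0, from -0.52 for *Klrd1* to -1.52 for *Klra3*.

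*Klrb1c* encodes NK1.1, the antigen by which NK cells of C57BL/6 mice are commonly recognized. It had 8 counts in Tc1 replicate 2, 1 in Tc9 replicate 1 and 0 in Tc9 replicate 2, too few to test. The 0 allows up to 0.0973 CPM.

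*Klre1*, whose product pairs with KLRI chains, was compared between the replicate 2 libraries alone, without a test. It had 31 counts in each (1.33 FPKM in Tc1 and 1.40 in Tc9). The log2 ratio was 0.0009, with a 95% interval for counting error (Wilson) of -0.71 to 0.71, so differences of less than about that size were not detectable at this depth.

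When Tc9 replicate 2 was set against Tc1 replicate 2, 3 of the 6 receptors compared were past 2-fold lower in Tc9 (*Klrc1*, *Klrc2* and *Klra3*) and none was past 2-fold higher. On log2(FPKM + 1) and on log2(FPKM + 0.1) the count was 2, without *Klrc2* (log2 ratios of -0.35 and -0.80). Over all 6226 genes compared, 4.95% were past 2-fold lower and 10.9% past 2-fold higher. These values share their libraries with the fit above and add no replicate. *Klrd1* had a log2 ratio of -0.67 (95% counting interval -0.82 to -0.52) and *Klra7* of -0.79 (-1.16 to -0.45), both under 2-fold.

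*Klrk1* encodes NKG2D, the activating receptor for stress-induced ligands, which activated mouse CD8+ T cells carry. In Tc9 replicate 2 it had 1348 counts, or 14.3 FPKM, a level above 68.4% of the genes listed in that library. *Klrg1* encodes the inhibitory cadherin receptor that marks short-lived effector cells. It was not listed in Tc9 replicate 2, which is 0 counts and allows up to 0.0973 CPM. Neither gene could be compared between Tc1 and Tc9 cells in the tables used here.

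Ordered by FPKM, a level per length, the receptors in Tc9 replicate 2 ran from *Klrd1* (25.9) through *Klrk1* (14.3), *Klrc1* (8.20), *Klra7* (3.42), *Klre1* (1.40) to *Klra3* (0.94), with *Klrb1c* and *Klrg1* at 0. *Klrc2* was left out of the order because of its deposited length. In Tc1 replicate 2 the order was *Klrd1* (40.2), *Klrc1* (25.4), *Klra7* (5.82), *Klra3* (3.27), *Klre1* (1.33) and *Klrb1c* (0.10). *Klre1* and *Klra3* thus stood in opposite order in these libraries. In Tc9 cells the FPKM of *Klre1* lay within the spread of *Klra3* over the replicates (0.94 to 1.48), and these neighbours do not differ beyond it.

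Other lectin receptor genes of the family were mostly near 0. Of 17 such genes, 3 could be tested, 10 had too few counts and 4 were reached by Tc9 replicate 2 alone. *Klra1* (Ly49A, inhibitory) was lower in Tc9 cells, with 75 counts in Tc1 replicate 2, 24 in Tc9 replicate 1 and 18 in Tc9 replicate 2, a log2 fold change of -1.86 (SE 0.42, adjusted p = 0.000149 by edgeR), and did not pass with DESeq2. *Klra6* (Ly49F) had 39, 30 and 19 counts and did not pass (log2 fold change -0.70, adjusted p = 0.318 by edgeR). *Klra5* (Ly49E) had 8, 34 and 17 counts, lowest in the Tc1 library, and did not pass either (log2 fold change 1.63, SE 0.66, adjusted p = 0.0611 by edgeR). All 3 carry the inhibitory motif at codons 6 to 11. The activating Ly49 genes were close to 0 in each library: *Klra4* (Ly49D) had 6, 1 and 0 counts, and *Klra8* (Ly49H) had 7, 0 and 0. *Klrc3* (NKG2E) had 86.75 counts in Tc9 replicate 2.

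Markers of other cell types were counted beside the receptors. Among 7 NK cell markers (*Ncr1*, *Klra4*, *Klra8*, *Klra9*, *Klrb1b*, *Fcgr3* and *Itga2*), 6 were reached by 3 libraries, and they summed to 53 counts in Tc1 replicate 2, 18 in Tc9 replicate 1 and 27 in Tc9 replicate 2. That is 1.66, 0.579 and 0.876 CPM, highest in the Tc1 library, as the 5 receptors tested were. *Fcgr3* among them was highest in Tc9 replicate 2 (6, 2 and 11 counts). *Ncr1* (NKp46), the defining NK cell gene, was at 3, 1 and 1 counts. The 5 receptors tested had at least 29 counts in each library, and *Klrc1* alone had 683.88 or more. Of 9 markers of CD8+ T cells, *Cd8a* ran from 19330 to 21622 counts over the 4 libraries. Of the 7 tested, *Cd3e* (log2 fold change 0.73) and *Cd3g* (0.49) were higher and *Cd5* (-0.61) lower in Tc9 cells by edgeR. These calls were made over all 4 libraries, where 17.4% of all genes tested were higher and 16.7% lower. The part of NK cells in the receptor differences was not tested. Of the other markers, the B cell gene *Cd79b* was higher in Tc9 (155, 380 and 473 counts) while *Cd79a* had 7 to 12 counts and *Ms4a1* 1 to 4, and of the 11 myeloid genes *Cd68* was higher by edgeR (226, 221, 358 and 439 counts) while every other one had 12 counts or fewer. In the 3 libraries that reach the receptors, DESeq2 called 0 of the myeloid and 1 of the CD8+ T cell markers, and limma on log2(FPKM + 1) called 0 of either. Of the 7 melanoma genes, *Pmel* had 69.97 and 116.53 counts in the Tc1 and Tc9 replicate 2 libraries, both genes that could be compared (*Pmel* and *Tyr*) being within 2-fold.

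Among the adaptors through which activating receptors signal, *Fcer1g* was lower in Tc9 cells. *Fcer1g*, the FcRγ chain, had 114 counts in Tc1 replicate 2, 24 in Tc9 replicate 1 and 13 in Tc9 replicate 2, and fell by 2.64 on the log2 scale (SE 0.40, adjusted p = 1.21e-09 by edgeR). *Tyrobp* (DAP12), the adaptor of NKG2C, had 7 counts in Tc1 replicate 2 and 0 in Tc9 replicate 2. *Hcst* (DAP10), the adaptor of NKG2D, had 62 and 83 counts, a log2 ratio of 0.41 with a counting interval of -0.05 to 0.89. *Cd247*, the CD3ζ chain, was measured in all 4 libraries and did not pass (log2 fold change -0.05, adjusted p = 0.762 by edgeR). Per length, the level of *Fcer1g* relative to *Cd247* (a ratio of FPKM) was 0.0650 in Tc1 replicate 2, 0.0149 in Tc9 replicate 1 and 0.00732 in Tc9 replicate 2.

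The phosphatases that ITIMs recruit did not pass: of the 2 tested, 0 passed by edgeR, DESeq2 or limma, and 1 (*Ptpn6*) had an unadjusted p under 0.05. *Ptpn6* (SHP-1) had 6169, 4359 and 4418 counts in the 3 libraries (log2 fold change -0.52, SE 0.25, adjusted p = 0.136 by edgeR), both Tc9 libraries being below the Tc1 library. For *Inpp5d* (SHIP-1) the log2 fold change was 0.08 (adjusted p = 0.862 by edgeR), and for *Ptpn11* (SHP-2) the log2 ratio between the replicate 2 libraries was -0.28. Of 11 signalling genes of activating receptors, 5 were tested and 0 passed by edgeR, DESeq2 or limma, 0 also at an unadjusted p under 0.05, and the other 6 were within 2-fold between the replicate 2 libraries.

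**Figure D3:**
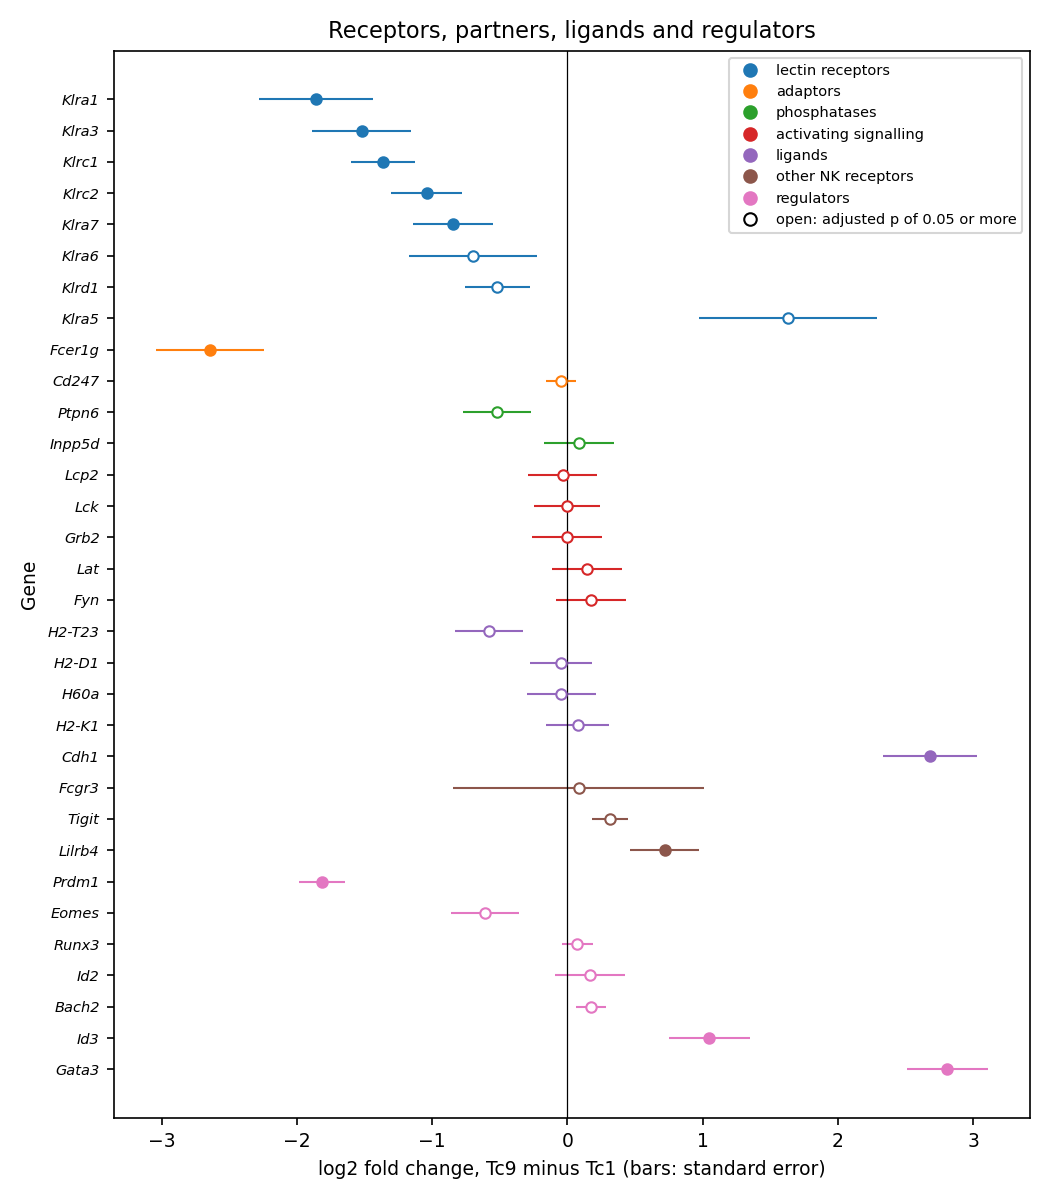
Log2 fold changes (Tc9 minus Tc1, bars the standard error) of the lectin receptor genes tested and of the tested adaptors, phosphatases, signalling genes, ligands, other NK receptors and regulators. Filled points have an adjusted p under 0.05 by edgeR. The 5 filled points of lectin receptors are negative, from *Klra1* at -1.86 to *Klra7* at -0.85.

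Ligands of the receptors are also transcribed by T cells. Of 20 ligand genes, 5 were tested and 1 passed. *Cdh1*, which encodes E-cadherin, a ligand of KLRG1, was reached by all 4 tables and had 10 and 7 counts in Tc1 replicates 1 and 2 and 48 and 62 in Tc9 replicates 1 and 2. Both Tc9 libraries were above both Tc1 libraries. The log2 fold change was 2.68 (SE 0.35, adjusted p = 0.000416 by edgeR), in a test of 1284 genes of which 16.7% were lower and 17.4% higher in Tc9. *H2-T23*, which encodes the Qa-1 heavy chain that CD94/NKG2A binds, had 8349.94, 5889.46 and 5498.78 counts in Tc1 replicate 2 and Tc9 replicates 1 and 2. It did not pass (log2 fold change -0.58, SE 0.25, adjusted p = 0.0875 by edgeR). *H2-K1* and *H2-D1*, the classical class I ligands of Ly49 receptors, had log2 fold changes of 0.08 and -0.05. Among the ligands of NKG2D, *H60a* had a log2 fold change of -0.04 and *Raet1a* a log2 ratio of 0.52 between the replicate 2 libraries.

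Receptors shared by NK and T cells outside the lectin family had values of both signs. Of 11 genes, 3 were tested and 1 was higher, in the 3-library test in which 12.5% of all genes were higher and 7.93% lower. *Lilrb4a*, which encodes an inhibitory immunoglobulin-like receptor, was higher in Tc9 cells, with 758.47 counts in Tc1 replicate 2, 1258.60 in Tc9 replicate 1 and 1289.02 in Tc9 replicate 2 (log2 fold change 0.72, SE 0.25, adjusted p = 0.0269 by edgeR). It did not pass with DESeq2, with limma on FPKM or with the scaling factors of the 4-library range. *Cd244* (2B4), compared between the replicate 2 libraries alone, had 39 counts in Tc1 and 8 in Tc9, past 2-fold lower. In Tc9 replicate 2, which alone reached them, *Cd160* had 475 counts, *Crtam* 800, *Cd96* 3000, *Slamf7* 3471 and *Nkg7* 5679.

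Of 15 transcription factors that govern NK and effector T cell programs, 7 were tested, and 2 were higher and 1 lower. Over all genes, 12.5% were higher and 7.93% lower in the 3-library test (*Gata3* and *Id3*), and 17.4% and 16.7% in the 4-library test (*Prdm1*). *Gata3*, the factor of type 2 responses, rose from 829 counts in Tc1 replicate 2 to 5037 in Tc9 replicate 1 and 6839 in Tc9 replicate 2 (log2 fold change 2.81, SE 0.30, adjusted p = 1.38e-18 by edgeR). *Id3*, an inhibitor of E proteins, had 104, 224 and 215 counts (log2 fold change 1.05, SE 0.30, adjusted p = 0.00389 by edgeR) and did not pass with DESeq2. *Prdm1* (Blimp-1), a factor of terminal effector cells, was measured in all 4 libraries with 336, 359, 89 and 108 counts, and fell by 1.81 on the log2 scale (SE 0.17, adjusted p = 3.96e-05 by edgeR). In each of these genes both Tc9 libraries lay on the same side of every Tc1 library. *Eomes*, a T-box factor of NK and memory CD8+ T cells, had 2965, 2074 and 1886 counts and did not pass (log2 fold change -0.61, adjusted p = 0.0661 by edgeR). *Nfil3*, needed for NK cell development, was past 2-fold higher in Tc9 between the replicate 2 libraries, with 1733 and 4375 counts.

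Genes that often accompany lectin receptors on effector CD8+ T cells were counted next. Of 6 such genes, 4 were tested and 2 were higher in Tc9 cells, beside the same 12.5% of all genes. *Cx3cr1*, the fractalkine receptor, had 3 counts in Tc1 replicate 2, 134 in Tc9 replicate 1 and 132 in Tc9 replicate 2 (adjusted p = 2.58e-18 by edgeR). With so few counts in the Tc1 library its fold is imprecise, and the log2 ratio of the replicate 2 libraries was 4.74 with a counting interval of 3.89 to 7.03. *Gzma*, granzyme A, had 116, 965 and 746 counts (log2 fold change 2.85, SE 0.30, adjusted p = 1.61e-19 by edgeR).

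Within the natural killer gene complex, genes of both directions lay side by side. Between the replicate 2 libraries 8 *Klr* genes could be compared, of which 6 had negative log2 ratios, with a median of -0.88 beside 0.03 over all genes compared. *Klra1*, which lies just past *Klra3* and outside the span, had a log2 ratio of -1.94. The other 3 genes compared in the span were *Cd69*, *Olr1* and *BC035044*. *Cd69*, an early activation antigen that lies 321 kb from *Klrd1*, had 1232 and 1108 counts in Tc1 replicates 1 and 2, against 511 and 449 in Tc9 replicates 1 and 2 (log2 fold change -1.28, SE 0.13, adjusted p = 6.23e-05 by edgeR). *Olr1*, which encodes the oxidized LDL receptor LOX-1 and lies 109 kb from *Klrd1*, had 29 and 27 counts in Tc1 replicates 1 and 2, against 237 and 220 in Tc9 replicates 1 and 2. Its log2 fold change was 3.03 (SE 0.21, adjusted p = 6.91e-06 by edgeR), with no overlap of the groups. *BC035044* had 530 and 162 counts in the Tc1 and Tc9 replicate 2 libraries. These 3 genes are outside the lists of receptors and partners and were named because they were the other genes of the span with enough counts.

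**Figure D4:**
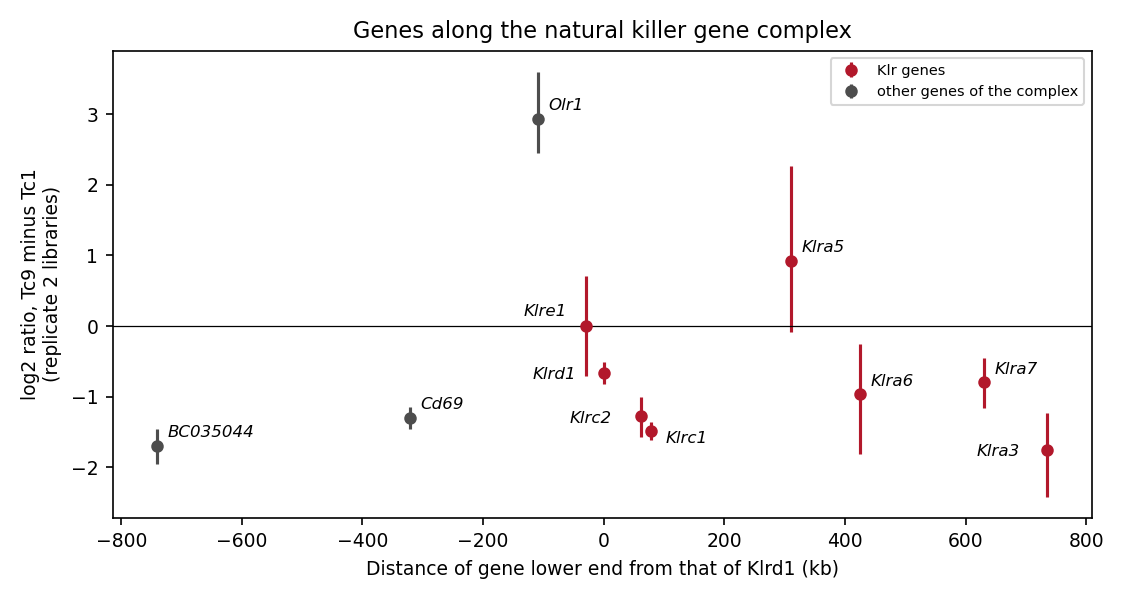
Log2 ratio (Tc9 minus Tc1, replicate 2 libraries) of the genes of the natural killer gene complex with enough counts, against the distance in kb of each gene's lower coordinate from that of *Klrd1*. Bars are 95% Wilson intervals for counting error only. *Klrc1* and *Klrc2* lie below 0, and *Olr1*, 109 kb to the left of *Klrd1*, lies above it.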

How the data were processed

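The 4 libraries, 2 of each group, were made from pooled RNA of sorted cells. Each deposited table gives expected counts, which are not normalized and need not be whole, and FPKM values, which the authors scaled by gene length and library size. The build in the submitters' processing notes is mm10. The aligner and counting program are not given in the sources used here.

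The tables used here reach different points in the order of gene identifiers, 1681 genes for all 4 libraries, 3467 for 3 and 7964 for the replicate 2 libraries. Library depth was the sum of the listed counts for Tc9 replicate 2, and for the others was estimated from the relation of count to FPKM. Counts were rounded and tested two-sided with edgeR 4.0.16 (quasi-likelihood, TMM, filterByExpr at a minimum count of 10) in R 4.3.3, with Benjamini-Hochberg adjustment over all genes tested. limma 3.58.1 and DESeq2 1.42.0 were alternatives. In the 3-library fit the prior degrees of freedom were infinite, so no gene had its own spread and genes of like level shared 1. The replicate 2 libraries were compared as log2 ratios with a prior count of 2. The smallest level considered detectable, 3 counts, was 0.0940 to 0.0973 CPM. Intervals and these limits take in counting error alone, because PCR copies of 1 molecule were not marked. On simulated counts the 3-library test recovered 84.8% of 2-fold and 96.2% of 4-fold changes, with 5 false calls of 185. The simulation gave all genes and both groups the same spread, whereas the real Tc9 replicates differed more than the Tc1 replicates. Its shares therefore hold for that setting and do not carry over to these data.

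The receptors and gene lists were chosen with earlier results of these data known. All receptors are named, and of the other lists those genes that passed, with the adaptors and the Qa-1 gene as partners. The genes named beyond this rule (the phosphatases, *Klra5*, *Klra6*, *Klrc3*, *Cd247*, the class I and NKG2D ligands, *Eomes*, the markers and the receptors reached by 1 library) were named after their values were seen. The scaling by the 4-library range in the 3-library fit and the summed features were chosen after seeing the data. Replicates carry the same numbers in both groups, but nothing at hand says that libraries of 1 number share mice. A few listed genes are not reported here.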

Additional observations from a re-analysis of the deposited data

How the results depend on the processing

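No log2 fold change of the 5 receptors tested changed sign under any alternative run. The log2 ratio of *Klre1*, near 0, became -0.03 with scaling factors from the replicate 2 libraries. The number of receptors called lower in the 3-library comparison, 4, was the same with RLE scaling, a filter at 30 counts and a threshold of 0.1. It was 2 with limma on log2(FPKM + 1) and 2 with the scaling factors of the 4-library range, 1 with limma on log2(FPKM + 0.1), 1 with DESeq2 and 0 without a filter. Over all genes, the 3-library comparison called 327 higher and 208 lower. These became 217 and 121 with DESeq2, 251 and 112 with limma on log2(FPKM + 1), 197 and 78 with log2(FPKM + 0.1), 197 and 84 with the scaling factors of the 4-library range, and 0 and 0 without a filter (825 genes had an unadjusted p under 0.05 with it). Between the replicate 2 libraries, 681 genes higher and 308 lower became 271 and 108 on log2(FPKM + 1), and 1309 and 794 at 1.5-fold, where 5 receptors were lower instead of 3 (2 on either FPKM scale). In the 4-library comparison, 214 genes lower became 139 without a filter. Leaving out 1 library, the genes higher ran from 99 to 424 and those lower from 74 to 430, with the lone library of a group assumed to vary like the other group. The cause of these changes was not tested. Leaving out Tc9 replicate 1 or Tc9 replicate 2 left 1 library a group and no test, with log2 ratios of -1.19 to -1.49 for *Klrc1*, -0.77 to -1.28 for *Klrc2*, -1.19 to -1.76 for *Klra3*, -0.79 to -0.82 for *Klra7* and -0.33 to -0.67 for *Klrd1*. Leaving out the Tc1 library leaves no comparison. With the replicate number as a block, the 4-library comparison called 231 genes higher and 213 lower, 406 of them shared, and *Cdh1* and *Prdm1* still passed. Same-numbered libraries did not deviate together (correlation -0.06). No paired analysis was possible for the receptors because their 3-library comparison leaves no residual degrees of freedom with a block.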
